A study of Rattus norvegicus with 4 samples.

Results

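Transcripts of 8 genes for secreted growth factors, Hbegf, Inhba, Gdf15, Adm, Vegfa, Bdnf, Fgf2 and Gdnf, were followed through 4 cultures of rat astrocytes, glial cells that tend neurons, synapses and vessels. The 8 are among 18166 genes that the array annotation names singly, and each was read by 1 probe. Hbegf, Inhba, Gdf15 and Adm were chosen because their values were raised with the compound that the labels call GW, so their differences with GW are a description of how they were picked. The other 4, Vegfa, Bdnf, Fgf2 and Gdnf, are trophic factors that astrocytes are known to make.

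Growth factors are secreted or shed proteins that act on receptors of nearby cells. Heparin-binding EGF-like growth factor (Hbegf) signals through the EGF receptor family, activin A (a dimer of the Inhba subunit) and growth differentiation factor 15 (Gdf15) belong to the TGF-β superfamily, and adrenomedullin (Adm) is a vasodilator peptide. In brain tissue astrocytes supply vascular endothelial growth factor A (Vegfa) to blood vessels and brain-derived neurotrophic factor (Bdnf), basic fibroblast growth factor (Fgf2) and glial cell line-derived neurotrophic factor (Gdnf) to neurons and other glia.

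The cells were primary astrocytes from the cerebral cortex of Sprague-Dawley rats aged 1 day, prepared with trypsin and kept in medium without serum for 2 days to remove microglia and meningeal cells. Every culture had been transfected with an siRNA. The untreated culture, the culture with interferon-γ (IFN-γ, an inflammatory cytokine) and the culture with IFN-γ and GW all carried control siRNA, and the fourth culture carried SHP siRNA and had IFN-γ and GW. Treatment lasted 3 h, and each condition was measured on 1 array, so no difference below has a replicate, an error or a test. GW without IFN-γ and SHP siRNA without GW were not analysed here, and the labels do not say what GW is or how many animals were pooled.

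Values are log2 signals, on which a difference of 1 is 2-fold, and they rank arrays for a given gene but not genes against each other, because probes differ in brightness. The array medians over 29489 probes lay between 5.79 and 5.87. Nr0b2, the gene that encodes the nuclear receptor SHP, stood between 5.14 and 5.33 in the 3 control siRNA cultures and at 3.45 with SHP siRNA, so all 4 values were low, under the median of the whole table (5.83). No background level of the arrays is known. Of 10 astrocyte markers measured 9 passed the filter on low values (a highest value of at least 5.83). Gfap and Slc1a3 stood at 11.00 or above on every array, whereas Sox9 stood between 5.92 and 6.18, close to the table median, and Gjb6 below that median throughout.

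Hbegf, whose membrane-bound precursor is cut by proteases to release the ligand, read 7.79 untreated, 8.19 with IFN-γ, 10.32 with IFN-γ and GW, and 9.13 with SHP siRNA, IFN-γ and GW. The GW culture was highest, and the SHP siRNA culture lay between it and the IFN-γ culture. The difference with GW was 4.39-fold over IFN-γ alone, and the SHP siRNA culture was 2.29-fold lower than the culture with control siRNA, IFN-γ and GW.

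Inhba, which encodes the shared subunit of activin A and activin AB, read 7.19 untreated, 7.31 with IFN-γ, 8.75 with IFN-γ and GW, and 7.32 with SHP siRNA. It stood out on the GW array alone, and the other 3 values lay within 0.13 of each other. The GW culture was 2.72-fold above the IFN-γ culture, and the SHP siRNA culture 2.69-fold below the GW culture.

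Gdf15, a stress-responsive cytokine that acts on appetite centres of the hindbrain, read 8.06 untreated, 9.59 with IFN-γ, 11.48 with IFN-γ and GW, and 11.30 with SHP siRNA. It was the member with the widest span over the arrays, 3.42 log2, and the only one of the 8 at least 2-fold higher with IFN-γ alone (2.89-fold). The GW culture was a further 3.71-fold higher, and both GW cultures differed little, by -0.19 log2 with SHP siRNA.

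Adm, the precursor gene of adrenomedullin, read 8.15 untreated, 7.63 with IFN-γ, 9.25 with IFN-γ and GW, and 8.12 with SHP siRNA. It was the only member clearly under its untreated value with IFN-γ, at -0.51 log2, and it was lowest there. With GW it was 3.06-fold above the IFN-γ culture but 2.14-fold above the untreated one, and with SHP siRNA it was 2.19-fold below the GW culture and close to untreated.

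Vegfa, the main inducer of vessel growth and permeability, read 7.90 untreated, 8.31 with IFN-γ, 8.81 with IFN-γ and GW, and 8.46 with SHP siRNA. Its highest value was again on the GW array, 1.88-fold above untreated, and no difference between any pair of arrays reached 2-fold.

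Fgf2, a mitogen for astrocytes and neural progenitors, read 7.96 untreated, 7.94 with IFN-γ, 8.55 with IFN-γ and GW, and 8.08 with SHP siRNA. The GW culture stood 1.53-fold above the IFN-γ culture, and the other 3 arrays lay within 0.14 of each other.

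Bdnf, a neurotrophin that supports neuron survival and synapses, read 5.72 untreated, 5.80 with IFN-γ, 6.22 with IFN-γ and GW, and 5.95 with SHP siRNA. Both values without GW were under the table median, which leaves the size of the GW difference (0.42) uncertain. Gdnf, a survival factor for dopamine and motor neurons, read 5.40, 5.42, 5.64 and 5.79 in the same order. All 4 Gdnf values were below the table median, and it was the member that did not pass the filter and the only one highest with SHP siRNA.

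**Figure D1:**
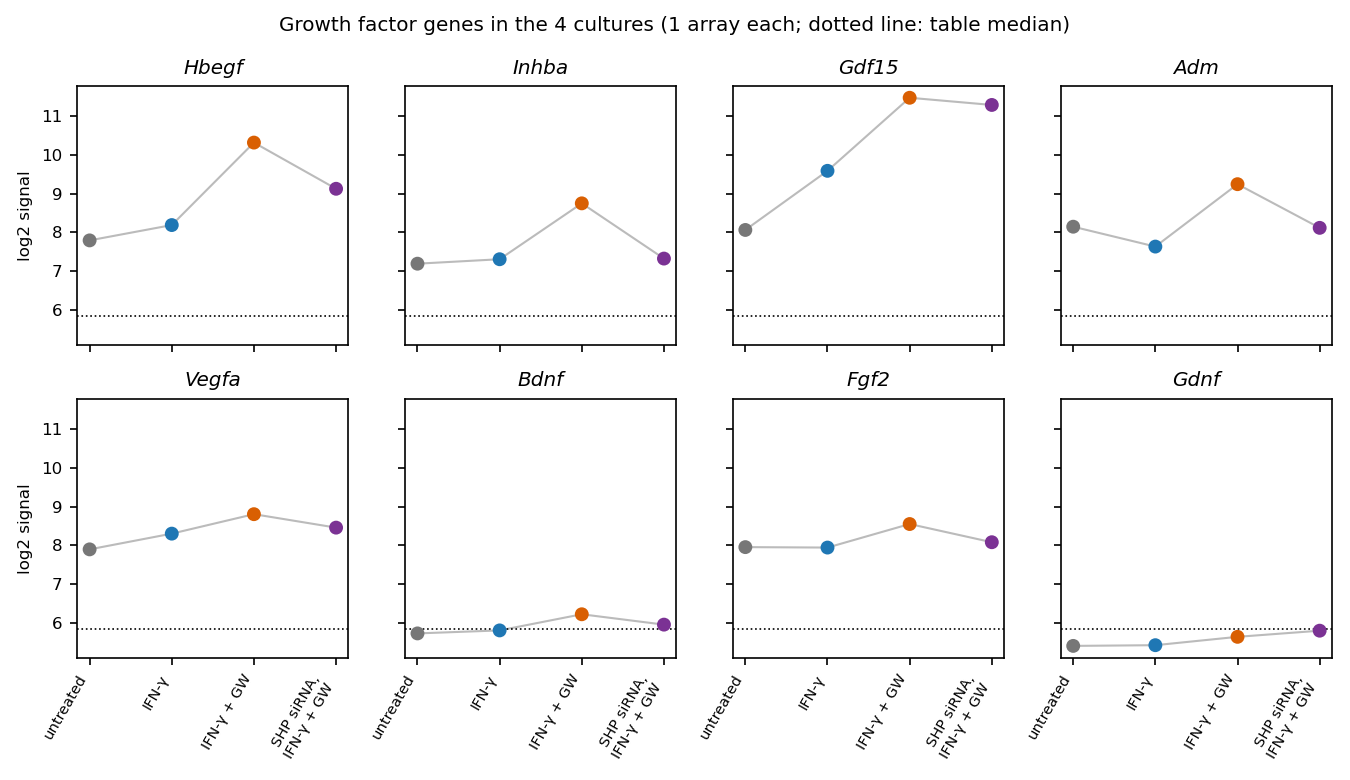
Log2 signal (vertical axis) of each of the 8 growth factor genes in the 4 cultures (horizontal axis), 1 point per array. Grey lines only guide the eye, and the dotted line is the table median of 5.83. All genes but Gdnf have their highest point with IFN-γ and GW, and Gdf15 stays high, at 11.30, with SHP siRNA.

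IFN-γ alone went with little difference in these genes apart from Gdf15. Of the 8 members 1 was at least 2-fold higher and 0 lower, beside 1.61% of the 11790 genes past the filter that were as much higher and 0.288% that were as much lower. The median difference of the 8 was 0.10 log2, beside -0.04 for all genes. Gdf15 ranked 87 of 11790 from the top. Vegfa (0.41) and Hbegf (0.40) lay within the middle 95% of all genes, which ran from -0.48 to 0.67, and Adm (-0.51) lay just below it.

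All 8 genes read higher with IFN-γ and GW than with IFN-γ alone, 4 of them by 2-fold or more. These 4 are the genes chosen for that difference, and across all genes the share was 0.958% higher and 0.95% lower, so the count of 4 is only a description. Hbegf ranked 21, Gdf15 32, Adm 49 and Inhba 56 of 11790 from the top. The 4 members not chosen for GW lay above 0 without reaching 2-fold, at 0.61 for Fgf2, 0.50 for Vegfa, 0.42 for Bdnf and 0.22 for Gdnf. Their median was 0.46, beside -0.05 for all genes, of which 42.1% lay above 0. The middle 95% of all genes ran from -0.75 to 0.62 and holds all 4.

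With SHP siRNA in place of control siRNA, under IFN-γ and GW, 3 of the 8 were at least 2-fold lower and 0 higher. The share across all genes was 0.263% lower and 0.144% higher. The 3 were Inhba (-1.43), Hbegf (-1.19) and Adm (-1.13), which ranked 8, 14 and 20 from the lowest of 11790. All 3 had been chosen for being high on the GW array, and that array enters this comparison with the opposite sign. Gdf15, chosen in the same way, differed by -0.19. Of the others Fgf2 stood at -0.47, Vegfa at -0.35, Bdnf at -0.27 and Gdnf at 0.16.

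**Figure D2:**
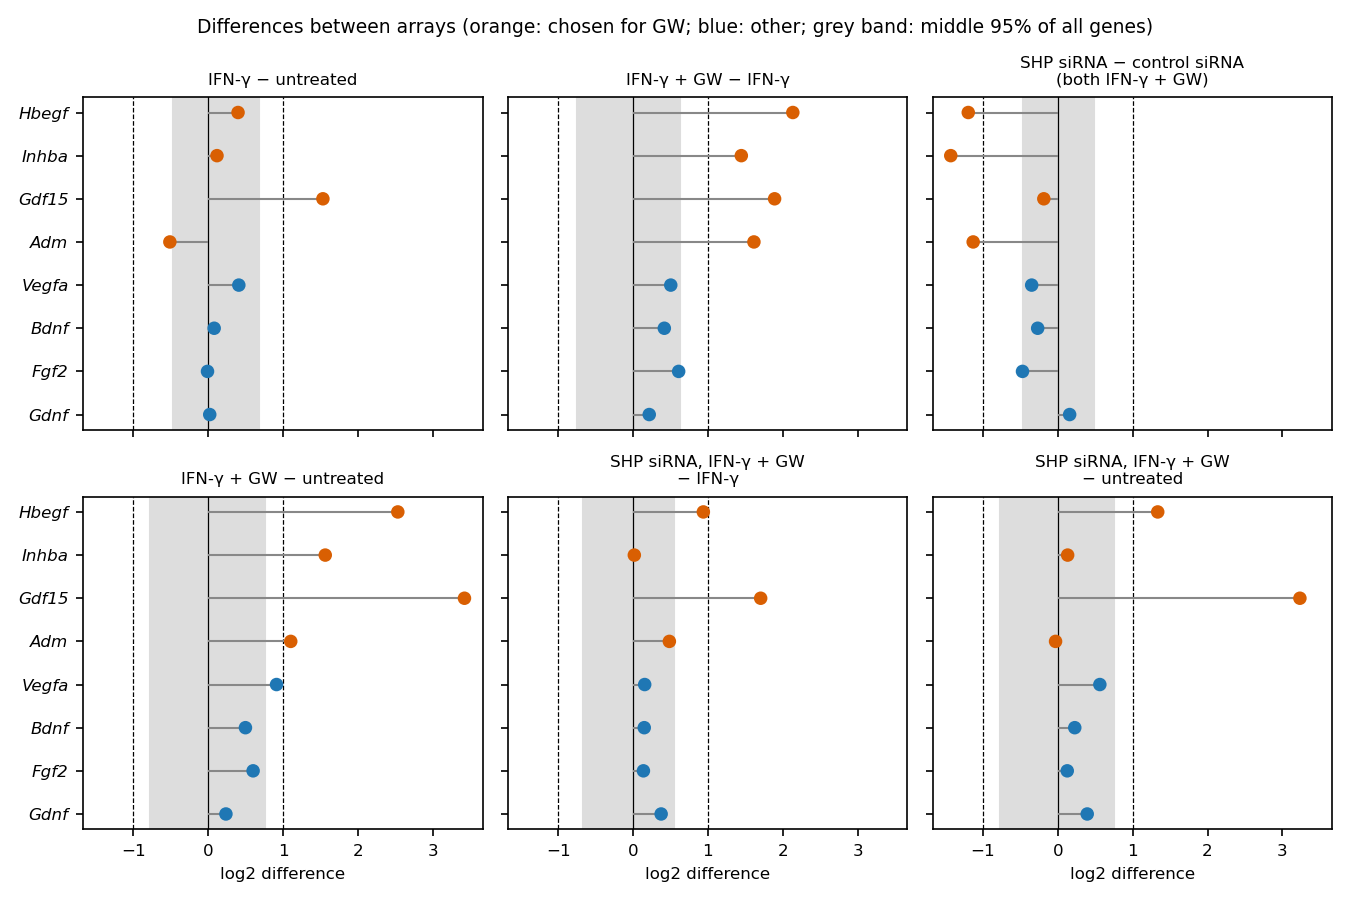
Log2 difference (horizontal axis) of each growth factor gene in the 6 differences among the 4 arrays. Orange points are the 4 genes chosen for GW, blue points the other 4, dashed lines mark 2-fold, and the grey band holds the middle 95% of the 11790 genes past the filter. In the lower right panel Gdf15 at 3.23 and Hbegf at 1.34 lie past 2-fold while Inhba and Adm lie near 0.

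The SHP siRNA culture against the untreated culture shares no array with the difference by which the 4 genes were chosen. It splits them. Gdf15 was 9.41-fold higher, rank 9 of 11790, and Hbegf 2.52-fold higher, rank 120, whereas Inhba differed by 0.13 and Adm by -0.03. That makes 2 of the 8 at least 2-fold higher and 0 lower, beside 1.59% and 0.882% of all genes. The sign of the Adm difference turned after quantile normalization and after cyclic loess. Vegfa (0.56), Gdnf (0.39), Bdnf (0.23) and Fgf2 (0.13) lay above 0 within the middle 95% of all genes. These 2 cultures differ in siRNA, IFN-γ and GW together, which cannot be told apart here.

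**Figure D3:**
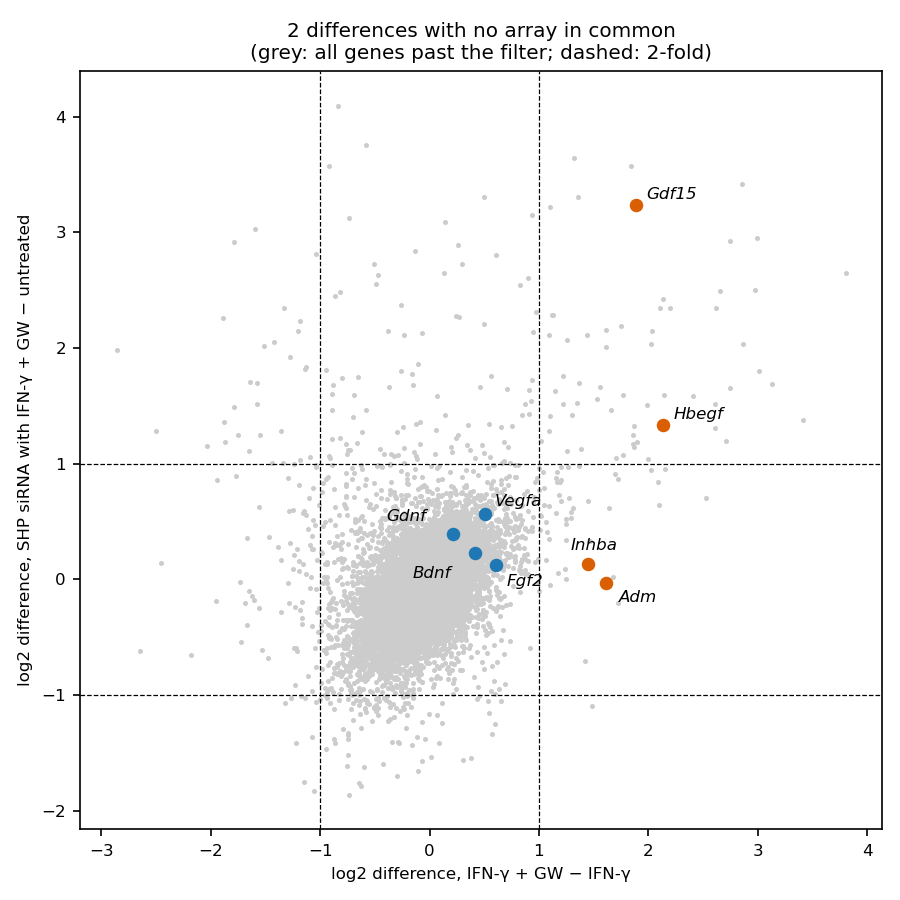
Log2 difference of IFN-γ with GW over IFN-γ (horizontal axis) against that of SHP siRNA with IFN-γ and GW over untreated (vertical axis), which have no array in common. Grey points are all genes past the filter, orange and blue points the growth factor genes, and dashed lines mark 2-fold. Gdf15 and Hbegf lie past 2-fold on both axes, and Inhba (1.45 and 0.13) and Adm (1.61 and -0.03) on the horizontal axis alone.

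The remaining differences share arrays with those above and are given side by side. Over the untreated culture, the GW culture was at least 2-fold higher in 4 of the 8 and lower in 0, beside 1.65% and 0.84% of all genes, with Gdf15 at 3.42, Hbegf at 2.53, Inhba at 1.56, Adm at 1.10 and Vegfa at 0.91. Over the IFN-γ culture, the SHP siRNA culture was at least 2-fold higher in 1 of the 8, Gdf15 at 1.70, and lower in 0, beside 0.45% and 0.407% of all genes. There Hbegf stood at 0.94, Adm at 0.48 and Inhba at 0.02.

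The upstream sequences of the 4 genes chosen for GW are shown because these genes were high together on the GW array. They are the 250 bases before an annotated transcript start in RefSeq for rat assembly GRCr8, 5′ to 3′ on the gene's strand. The Hbegf stretch is chr18:28390221-28390470 on the minus strand and that of Inhba chr17:53804509-53804758 on the minus strand. The Gdf15 stretch is chr16:18839015-18839264 on the plus strand, the downstream of 2 annotated starts, and that of Adm chr1:174179950-174180199 on the plus strand. The Inhba and Adm stretches lie inside the annotated genes, which span chr17:53787159-53810942 and chr1:174164178-174182372. The sequence before the outer 5′ end of these genes was not searched. Capitals mark any of the searched motifs.
Hbegf: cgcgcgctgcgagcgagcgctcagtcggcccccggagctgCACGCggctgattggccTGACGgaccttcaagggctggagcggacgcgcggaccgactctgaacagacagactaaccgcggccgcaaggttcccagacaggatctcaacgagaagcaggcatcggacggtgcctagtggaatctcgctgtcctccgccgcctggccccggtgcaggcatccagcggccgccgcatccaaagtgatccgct
Inhba: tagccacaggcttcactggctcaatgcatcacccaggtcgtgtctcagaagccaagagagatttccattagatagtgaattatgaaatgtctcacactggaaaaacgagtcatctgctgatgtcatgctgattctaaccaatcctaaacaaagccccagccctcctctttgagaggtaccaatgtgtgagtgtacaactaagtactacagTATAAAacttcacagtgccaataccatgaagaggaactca
Gdf15: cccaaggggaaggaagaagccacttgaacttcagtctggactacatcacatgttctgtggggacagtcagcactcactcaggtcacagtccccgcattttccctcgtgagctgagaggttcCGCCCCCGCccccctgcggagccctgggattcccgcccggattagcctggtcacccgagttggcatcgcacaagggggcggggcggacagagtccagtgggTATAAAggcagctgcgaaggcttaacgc
Adm: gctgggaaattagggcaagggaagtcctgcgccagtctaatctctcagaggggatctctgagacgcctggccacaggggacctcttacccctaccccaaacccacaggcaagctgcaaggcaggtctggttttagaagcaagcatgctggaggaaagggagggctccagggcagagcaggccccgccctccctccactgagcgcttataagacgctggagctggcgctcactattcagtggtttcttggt

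The motifs searched, on both strands and over the 250 bases before and 50 after each start, were the cAMP response element TGACGTCA and its core TGACG, the AP-1 site TGANTCA, the SRF CArG box, the EGR site GCGGGGGCG with its variant, GCGTGGGCG, and the hypoxia core ACGTG and its variant, GCGTG. The others were the interferon GAS element TTCNNNGAA, the NF-κB site, the NR4A element AAAGGTCA, the C/EBP-ATF element TGATGNAA, the heat shock core GAANNTTC and, on the gene strand, the TATA box TATAAA. The core TGACG lies within the full element and can overlap a hypoxia core. No searched motif was held by all 4 genes. Gdf15 had TATAAA at 28 to 23 bases before this start and 1 EGR match, and Inhba had TATAAA at 40 to 35 bases before the start used here. Hbegf had 1 match to TGACG and 1 to GCGTG, and the Adm window and the upstream Gdf15 window held none. Of 33469 RefSeq windows of this length, 8.8% held TATAAA, 21.2% TGACG, 29.7% GCGTG and 2.73% the EGR letters found at Gdf15. These matches describe letters in a short window and say nothing of a factor's binding.

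Around the members, most receptors, relatives and inhibitors stayed within 2-fold, as did most of all genes. Over 10 lists of such genes, 108 were listed, 100 measured and 73 past the filter. With IFN-γ 1 of the 73 was at least 2-fold higher, with GW 2 were, with SHP siRNA 0, and 0 were lower in any of these 3 comparisons. The shares of all genes at least 2-fold higher were 1.61%, 0.958% and 0.144%, and at least 2-fold lower 0.288%, 0.95% and 0.263%. Counts this small are only a description beside such shares. The medians of the 73 were 0.09, -0.03 and 0.02, beside -0.04, -0.05 and 0.01 for all genes.

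The EGF receptor side of Hbegf held 1 of the 2 partner genes at least 2-fold higher with GW. Errfi1, a feedback inhibitor that binds the EGF receptor inside the cell, read 9.25 untreated, 9.30 with IFN-γ, 11.00 with IFN-γ and GW, and 10.16 with SHP siRNA. Like Hbegf it was highest with GW, 3.24-fold over IFN-γ alone, and lay between with SHP siRNA, 1.79-fold below the GW culture. The receptor gene Egfr read 7.38, 7.66, 7.82 and 7.74 in the same order, a span under 2-fold. Adam17, a protease known to release Hbegf and other ligands, stood at 9.48 with IFN-γ and 8.90 with GW, a difference of -0.58. Of the other EGF family ligands 5 of 10 passed the filter and 0 reached 2-fold in the 3 main comparisons. Of all genes 0.144% to 1.61% did, depending on comparison and direction. Areg (amphiregulin) was nearest at 0.64 with GW.

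Among partners of Inhba and Gdf15, 0 of 7 relatives and inhibitors and 0 of 10 receptor and SMAD genes past the filter reached 2-fold in the 3 main comparisons. The share of all genes that did was 0.144% to 1.61%, depending on comparison and direction. Bambi, a pseudoreceptor that dampens TGF-β family signals, stood at 7.63 untreated and 6.78 with IFN-γ (-0.85). Fst, the activin-binding protein follistatin, read 6.24, 6.36, 6.37 and 5.79, lowest with SHP siRNA, where it was also under the table median. The activin receptor gene Acvr2a read 9.63, 8.96, 9.50 and 9.17. Gfral, the receptor of Gdf15, stayed between 2.68 and 3.06, far under the table median. Smad7, an inhibitor that TGF-β signals induce, read 6.15, 6.55, 6.90 and 7.32 and was highest with SHP siRNA, 2.24-fold over untreated.

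Of the 7 adrenomedullin and CGRP system genes past the filter 0 reached 2-fold with GW, beside 0.958% of all genes higher and 0.95% lower. There 6 of the 7 lay below 0, beside 57.8% of all genes, with a median of -0.34 beside -0.05, and Calca, the CGRP precursor gene, lay above at 0.24. Calcrl, the receptor that adrenomedullin and CGRP share, read 9.11 untreated, 9.21 with IFN-γ, 8.46 with IFN-γ and GW, and 7.60 with SHP siRNA. Both GW cultures were under both cultures without GW. With control siRNA the GW culture was 1.67-fold under IFN-γ and 1.57-fold under untreated. With SHP siRNA the GW culture was 3.05-fold under IFN-γ and 2.86-fold under untreated. Ackr3, a scavenging receptor of adrenomedullin and of a chemokine, read 7.92, 7.29, 6.87 and 6.90 and was 2.07-fold lower with IFN-γ and GW than untreated. Pam, the enzyme that amidates the peptide, stayed between 9.84 and 10.18.

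For Vegfa, 0 of 6 relatives and receptors past the filter reached 2-fold in the 3 main comparisons. Of all genes 0.144% to 1.61% did, depending on comparison and direction. With GW 5 of the 6 lay below 0, beside 57.8% of all genes, with a median of -0.29. Of the 9 genes listed there 8 were measured, and the Vegfa receptor gene Kdr was not among them. Nrp1, a co-receptor of Vegfa, read 7.37, 7.64, 7.12 and 7.76. Of genes that hypoxia-inducible factor is known to induce, as it does Vegfa and Adm, 0 of 15 reached 2-fold with GW. The shares of all genes were 0.958% higher and 0.95% lower. The median of the 15, -0.01, lay near that of all genes. The glycolytic regulator Pfkfb3 was closest, at 0.96, and past 2-fold after quantile normalization and cyclic loess, where the list's median was 0.04 and 0.06.

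For Fgf2, the receptor genes Fgfr1, Fgfr2 and Fgfr3 differed by less than 0.25 log2 in each main comparison, while Sprouty genes, feedback inhibitors of receptor tyrosine kinases, differed more. Spry4 read 5.87 untreated, 6.37 with IFN-γ, 7.57 with IFN-γ and GW, and 6.73 with SHP siRNA, and was 2.31-fold higher with GW. Spry2 read 8.46, 8.87, 9.60 and 8.85, also highest with GW. Spry1 read 5.59, 8.01, 7.35 and 7.34, so its difference came with IFN-γ, 5.34-fold, from an untreated value below the table median. Of 12 genes in that list past the filter, 1 was at least 2-fold higher with IFN-γ, 1 with GW and 0 with SHP siRNA. The shares of all genes were 1.61%, 0.958% and 0.144%, and counts of 1 gene are only a description. Of the other FGF ligands 4 of 12 measured passed the filter and 0 reached 2-fold in a main comparison, which is only a description beside such shares.

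For Bdnf and Gdnf, 0 of 7 and 0 of 5 partner genes past the filter reached 2-fold in the 3 main comparisons. Of all genes 0.144% to 1.61% did, depending on comparison and direction, so 0 in lists this short is only a description. Ntf3, the neurotrophin-3 gene, read 5.94, 5.72, 6.52 and 6.21 and, like Bdnf, was highest with GW, from a value below the table median. Sort1, which sorts neurotrophin precursors inside the cell, read 10.18, 10.07, 9.27 and 9.62, lowest with GW at -0.79. The Bdnf receptor gene Ntrk2 stayed between 9.78 and 10.10, and the Gdnf receptor genes Gfra1 and Ret spanned 7.33 to 7.47 and 5.32 to 5.56.

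**Figure D4:**
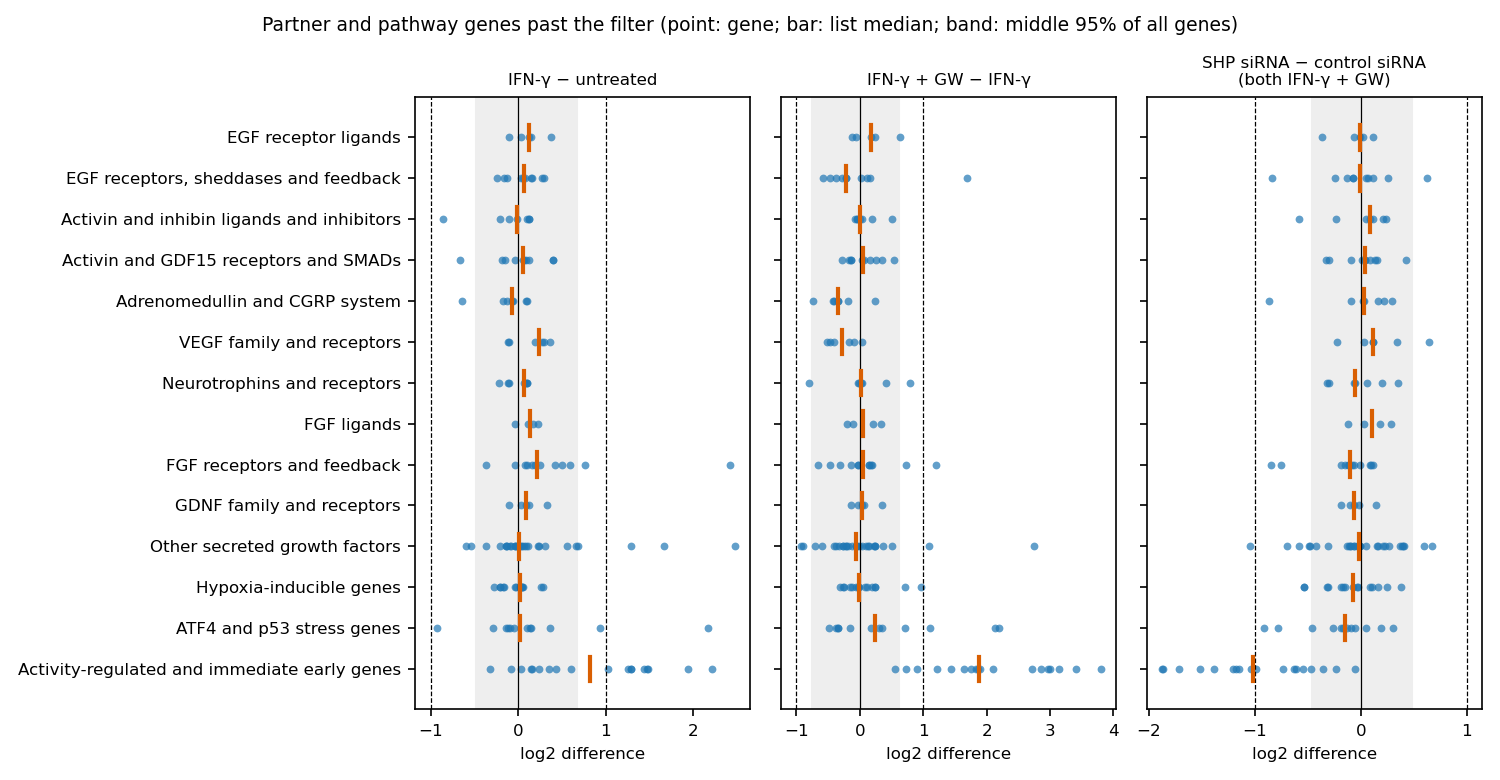
Log2 difference (horizontal axis) of each gene past the filter in the partner and pathway lists (rows) for the 3 main comparisons. Points are genes, orange bars list medians, dashed lines mark 2-fold, and the grey band holds the middle 95% of all genes. With GW the medians of the 10 partner lists run from -0.34 (adrenomedullin) to 0.17 (EGF receptor ligands). The activity-regulated list has medians of 0.82 with IFN-γ, 1.88 with GW and -1.02 with SHP siRNA.

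Other secreted factors give the 8 genes their setting. Among 29 such genes passing the filter, 3 were 2-fold or more higher with IFN-γ and 0 lower: Bmp2, a bone morphogenetic protein (2.48), Edn1, the endothelin-1 precursor (1.66), and Angptl4, a lipase inhibitor (1.28). With GW 2 were higher and 0 lower, the matricellular protein gene Ccn1 (2.75) and Clcf1, a cytokine of the ciliary neurotrophic factor receptor (1.09). With SHP siRNA 0 were higher and 1 lower, the neuropeptide precursor gene Vgf (-1.05). The shares of all genes were 1.61% and 0.958% higher and 0.263% lower. The list medians were 0.00, -0.06 and -0.02. Cntf, ciliary neurotrophic factor of astrocytes, read 9.63, 9.54, 8.84 and 8.42, so both GW cultures were under both cultures without GW. Bmp4 read 7.33, 7.43, 6.50 and 7.09, lowest with GW.

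**Figure D5:**
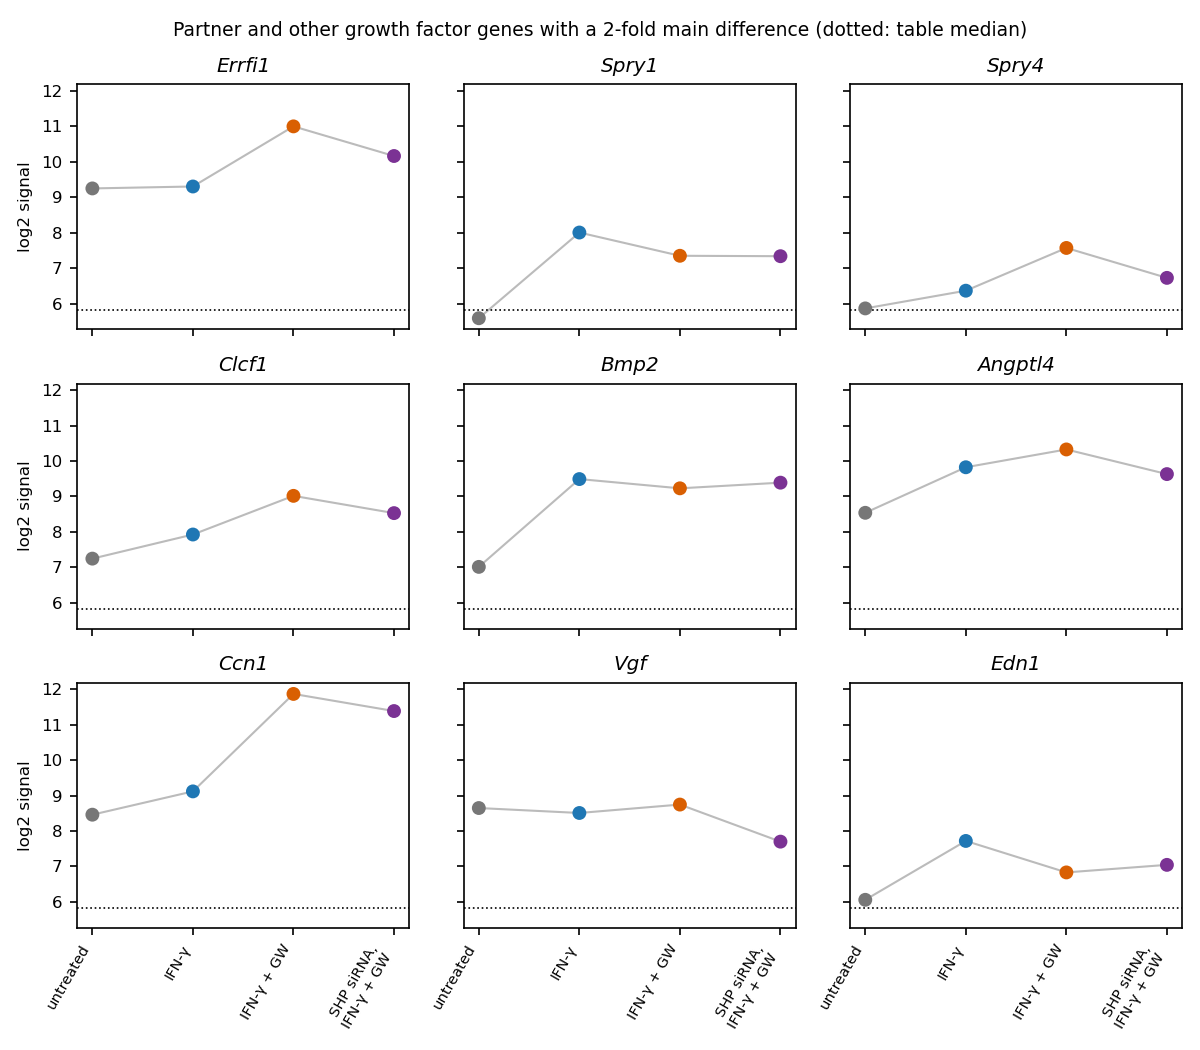
Log2 signal (vertical axis) in the 4 cultures (horizontal axis), 1 point per array, of the 9 partner and other growth factor genes at least 2-fold different in a main comparison. Grey lines guide the eye and the dotted line is the table median. Errfi1, Spry4, Ccn1, Clcf1, Angptl4 and Vgf are highest with IFN-γ and GW, and Bmp2, Spry1 and Edn1 with IFN-γ alone. Vgf is lowest with SHP siRNA.

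The 4 genes chosen for GW were compared with all genes past the filter by the root mean square distance between centred values over the 4 arrays. The genes nearest to Hbegf were the immediate early gene Ier2 (0.10 log2), Chac1 (0.12), which encodes a glutathione-degrading enzyme, and Zfand2a (0.16). Those nearest to Inhba were the vesicle protein gene Syt4 (0.11), the chloride transporter gene Clcn5 (0.19) and the transcription factor gene Npas4 (0.19). Those nearest to Adm were the cochaperone gene Bag3 (0.14), Clcn5 (0.18) and the heme oxygenase gene Hmox1 (0.18). For Gdf15, the member with the widest span, the nearest were Dusp1, Ccnl1 and Ppp1r15a, at 0.27 to 0.31. The distance is not scaled by span, so its size cannot be compared between members. Pearson correlations of these pairs ran from 0.96 to 1.00 over only 4 arrays, and arrays that share a treatment also share it in every gene. The pairs were picked as the closest among 11790 genes on the same 4 values, so high correlations follow from that choice.

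Activity-regulated and immediate early genes, a group to which Bdnf is known to belong, were already at least 2-fold higher in 9 of 18 with IFN-γ alone, beside 1.61% of all genes, with a median of 0.82. With GW over IFN-γ 15 of 18 were at least 2-fold higher, beside 0.958%, with a median of 1.88. With SHP siRNA 9 of 18 were at least 2-fold lower, beside 0.263%, in a comparison that again uses the GW array. The gene lists were chosen with earlier results of these data known, so these counts only describe the list. Of ATF4 and p53 stress genes, the groups to which Gdf15 is known to respond, 1 of 12 was at least 2-fold higher with IFN-γ, Ppp1r15a (2.17), and 3 with GW, Atf3 (2.19), Chac1 (2.14) and Ppp1r15a (1.10), and 0 were lower in either. The list's remaining stress genes did not reach 2-fold with GW, with Ddit3 at 0.35, Trib3 at 0.30, Atf4 at 0.18 and Asns at -0.34. The list's 5 p53 targets lay on both sides of 0 with GW, Mdm2 at 0.71, Sesn1 at -0.15, Ccng1 at -0.35, Cdkn1a at -0.37 and Phlda3 at -0.48.

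Markers of some other cells moved beside these genes, and their part in the results was not tested. Of 15 microglia markers past the filter 14 lay below 0 with GW, beside 57.8% of all genes, and 2 were at least 2-fold lower, beside 0.95%. They were below 0 in 13 of 15 with IFN-γ, beside 59.8%, and the log2 of their summed signal was 13.8 untreated, 13.6 with IFN-γ, 13.0 with IFN-γ and GW, and 13.2 with SHP siRNA. No marker of that list lay below the table median on any array. Of 8 meningeal fibroblast markers past the filter of 11 measured, 7 lay above 0 with SHP siRNA, beside 51.5% of all genes. Postn (1.43) and Aldh1a2 (1.11) were at least 2-fold higher there, 2 of 8 beside 0.144%, and Aldh1a2 had been 2-fold or more lower with GW (-1.21). The summed levels were 11.5, 11.6, 11.3 and 11.9, while Dcn, Lum and Slc6a13 stayed below the table median. Of 7 endothelial markers 1 passed the filter, Cdh5, and Cldn5 and Tek stayed below the table median throughout. Of 11 neuron markers measured 5 passed the filter. With GW 4 of the 5 lay above 0, beside 42.1% of all genes. At 2-fold with GW were 0, beside 0.958% of all genes higher and 0.95% lower. Stmn2 read 11.68 to 12.04, Map2 9.50 to 9.85 and Gad1 8.24 to 8.57, while the other 6, Tubb3, Snap25, Syt1, Nefl, Nefm and Slc17a7, were below the table median on every array. The summed levels of the 5 past the filter, in which Stmn2 weighs most, were 12.4, 12.3, 12.2 and 12.2. Their mean log2 values were 8.39, 8.48, 8.54 and 8.46. Of 7 oligodendrocyte lineage markers past the filter 0 reached 2-fold in the 3 main comparisons. Of all genes 0.144% to 1.61% did, depending on comparison and direction. The summed levels of these 7 ran from 10.2 to 10.3. The summed astrocyte markers ran from 13.9 to 14.2. In such bulk RNA, fewer cells of a type and less RNA per cell cannot be told apart.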

How the data were processed

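RNA of 4 cultures, 1 array each, was extracted with Trizol and labelled with biotin as sense-strand cDNA, per the labels' protocols. The deposited table holds 1 value per probe, taken as log2 signal because the values run from 1.14 to 13.4. For the log base, background correction and normalization, a statement is not given in the sources used here. Of 29489 probes, 18511 have 1 gene symbol, 575 several and 10403 none. Symbols were updated by Entrez identifier for 18394 probes, and the probe with the highest mean stood for a gene. Genes whose highest value reached the table median of 5.83 passed the filter. A difference is the log2 value of 1 array minus that of another, and 2-fold was the threshold. With 1 array per group no test was run, and precision is limited by the number of arrays. The members and gene lists were chosen with earlier results of these data known. The genes named were all members, the list genes at 2-fold or among the 3 greatest differences of a list in a main comparison, the 3 nearest patterns, and Nr0b2. Others (Calca, Cntf, Gfral, Ntrk2, Ret, Atf4, Trib3, Asns, Cdkn1a, Ccng1, Mdm2, Phlda3, Fgfr1, Fgfr2, Gfap, Gjb6, Cldn5, Tek, Dcn, Lum, Slc6a13 and 6 neuron markers below the table median) were named for their role, after their values were seen. Kdr was named because it had no probe with 1 gene symbol. Counting was tested on simulated data. Alternatives were quantile normalization and cyclic loess (limma 3.58.1, R 4.3.3), median centring, the mean of probes, 2 other filters and thresholds of 1.5-fold and 3-fold. Planned protein comparisons were not made. Other steps used Python 3.11.15.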

Additional observations from a re-analysis of the deposited data

How the results depend on the processing

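Each member's difference in the 3 main comparisons and in SHP siRNA with IFN-γ and GW against untreated was recomputed under quantile normalization, median centring, cyclic loess and the mean of probes. All 128 values kept their side of the 2-fold threshold. Each member has 1 probe, so the mean of probes could not change its values. Median centring only shifts all genes of a comparison by the same amount. In 4 of them the sign turned near 0, for Adm in SHP siRNA against untreated (0.05 and 0.06) and for Fgf2 with IFN-γ (0.00 and 0.02), after quantile normalization and cyclic loess. Hbegf with GW ran from 2.06 to 2.22 and Inhba with SHP siRNA from -1.44 to -1.41. Median centring put the median of all genes at -0.12 with GW and -0.14 for SHP siRNA against untreated. No member count moved under these or under the other filters. At 1.5-fold the count higher with GW was 5 in place of 4, with Fgf2 added, and no other member count changed. At 3-fold the count higher with GW was 3 in place of 4, without Inhba, the count higher with IFN-γ 0 in place of 1, the count lower with SHP siRNA 0 in place of 3, and the count higher in SHP siRNA against untreated 1 in place of 2, by construction of the threshold. Of 336 partner and pathway list counts, 2 moved under other scalings or probe means, both for the hypoxia list, and 29 of 168 moved with the threshold. A list count was called moved only if it changed by more than 1.5-fold, or to or from 0. Smaller changes of a count are not included in these numbers. No paired analysis was possible because each group holds 1 array, and no replicate could be left out. The pseudocount alternative was not run because the table is on a log scale. The background of the arrays is unknown, which limits Bdnf, Gdnf and Nr0b2 most.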
